A study of Bos taurus with 20 samples.

Results

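Expression of 6 genes of sterol synthesis and its control was followed in cattle muscle: INSIG1 and SREBF2, which regulate the pathway, and HMGCS1, FDPS, FDFT1 and SQLE, which encode enzymes of it. All probe sets that the platform annotation assigns to exactly 1 of these symbols were taken, which gave 10 probe sets of the 24016 on the array that are not controls, and 6 genes of the 9155 that the annotation names singly. Of the 10 probe sets, 6 were bright enough to be tested and covered 5 genes. The other 4 were among the 40% of probe sets with the lowest mean, and they include the only probe set of SQLE.

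Total RNA of Musculus longissimus dorsi, a long back muscle, came from 20 F2 bulls of a cross of the dairy breed Holstein with the beef breed Charolais. The study compared 10 bulls with a high content of intramuscular fat (IMF, the fat between the muscle fibres) with 10 bulls of low IMF, with 1 Affymetrix array per animal. Within the high IMF group 5 animals carry an S before the number in their title and 5 do not, and the low IMF group is split in the same way. What the S stands for is not given in the labels, so both sets are called title series here and treated as a possible batch. No age, diet or fat percentage is given in the labels, and all animals are of the same cross. Each animal has its own number, so the spread between arrays of a group includes the spread between animals.

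Cholesterol is built from acetyl units through mevalonate, farnesyl diphosphate and squalene. The protein made from SREBF2 is held in the membrane of the endoplasmic reticulum by INSIG proteins while sterols are plentiful. When sterols run low it is cut and released, and it then raises transcription of most genes of the pathway, INSIG1 included. Muscle fibres use the pathway for membrane cholesterol and for the isoprenoids that anchor proteins to membranes, and fat cells store much of a body's free cholesterol.

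The deposited values are linear intensities and were analysed as log2(intensity + 1), so that a difference of 1 is a 2-fold change. The median signal of an array lay between 51.65 and 67.7. The defining genes of muscle fibres were bright in every group, with 10 of 12 listed genes tested and mean values per gene near the top of the scale (ACTA1, skeletal actin, averaged 13.69 ± 0.08 in high IMF against 13.69 ± 0.04 in low IMF, SD, n = 10 each). The S arrays and the arrays without S stood apart: the mean log2 value of the 9 spiked control probe sets was 9.87 to 10.6 on S arrays and 10.68 to 10.88 on the others. In 4 arrays the albumin signal (ALB, a liver protein) exceeded 2000. These were high IMF replicates 6, 8 and 10, all S animals, and low IMF replicate 3, a no-S animal. On these 4 arrays 1 ALB probe set ran from 4871 to 83307, against 245 to 469 on the other 16, and results that rest on them are given with and without them.

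INSIG1 and the brighter probe set of SREBF2 had higher means in high than in low IMF muscle in both title series, but neither passed the test across all probe sets. The bright probe sets of the enzymes differed less, by at most 0.10 log2 units in either direction over all 20 animals. None of the 6 tested probe sets was called in high against low IMF, beside 0% of all 14409 tested at an adjusted p under 0.05. At an unadjusted p under 0.05, 1 of the 6 passed, beside 1.66% of all tested, and limma's lowest adjusted p over all probe sets was 0.9997. Their median difference was 0.10, beside -0.03 over all tested probe sets, with 4 higher and 2 lower. Of all tested probe sets 40.2% were higher in high IMF, and the counts by direction below stand beside that share. In whole tissue, more or fewer cells of a type and more or less RNA per cell cannot be told apart.

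INSIG1 (Bt.24614.1.S1_at) helps to retain the precursor of the SREBP2 factor. It reached 8.28, 8.73, 9.12, 8.77 and 10.20 log2 units in the 5 S animals of high IMF. In the 5 S animals of low IMF it reached 8.63, 8.43, 8.13, 7.69 and 7.36. Among the animals without S it reached 8.83, 7.78, 7.26, 7.82 and 9.06 in high IMF, against 7.58, 8.01, 7.65, 8.21 and 6.85 in low IMF. The highest value, an intensity of 1173, belonged to high IMF replicate 10, and the lowest, 114, to low IMF replicate 5. In the S series 4 of the 5 high IMF animals lay above all 5 low IMF animals. In the other series 2 of 5 did, and the remaining 3 lay among the low IMF values.

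INSIG1 averaged 8.58 ± 0.84 in high IMF and 7.85 ± 0.53 in low IMF (n = 10 each, SD), a difference of 0.73 (SE 0.29) or 1.66-fold, and 7 of 10 high IMF animals lay above the low IMF median. By limma the unadjusted p was 0.0208 and the adjusted p 0.9997, and with title series as a covariate these were 0.0106 and 0.676. The difference was 0.97 (SE 0.34, 1.96-fold, limma adjusted p = 0.624) among S animals and 0.49 (SE 0.35, adjusted p = 0.991) among no-S animals. The difference between these values, 0.48 (SE 0.52), did not pass limma's interaction test (adjusted p = 0.887). With 1 array left out the no-S value ran from 0.26 to 0.71, and it moved by over 1.5 times without high IMF replicate 5 (0.26), low IMF replicate 5 (0.29) or high IMF replicate 1 (0.32). The difference between the series ran from 0.19, without high IMF replicate 10, to 0.71, and was also over 1.5 times smaller without high IMF replicate 3 (0.26) or low IMF replicate 10 (0.31). Without the 4 arrays with high albumin and with title series as a covariate the INSIG1 difference was 0.57 (limma adjusted p = 0.925), and within the S animals it was 0.70.

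SREBF2 (Bt.11226.1.S1_at), the transcription factor of the pathway, reached 7.27, 7.71, 7.67, 8.05 and 7.81 log2 units in the S animals of high IMF, against 7.56, 7.51, 7.40, 7.35 and 7.24 in the S animals of low IMF. Among the animals without S the values were 7.08, 6.99, 6.97, 7.01 and 7.38 in high IMF, against 6.65, 6.68, 7.14, 6.71 and 6.57 in low IMF. In the S series 4 of the 5 high IMF animals were above every low IMF animal, and the exception was replicate 6, 1 of the arrays with high albumin. In the other series all 5 high IMF animals were above 4 of the 5 low IMF animals, and the low IMF animal among them was replicate 3, also an array with high albumin.

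The SREBF2 means stood in the order high IMF S (7.70 ± 0.28), low IMF S (7.41 ± 0.13), high IMF without S (7.09 ± 0.17) and low IMF without S (6.75 ± 0.23, SD, n = 5 each). The ranges of neighbours in this order overlapped in each case. High minus low IMF was 0.31 (SE 0.17, unadjusted p = 0.0795 by limma) over all animals, 0.29 (SE 0.14) within the S series and 0.34 (SE 0.13) within the other. With title series as a covariate the standard error was 0.09 and limma's unadjusted p 0.00314, with an adjusted p of 0.676. In that fit 2 of the 6 probe sets, INSIG1 and SREBF2, had an unadjusted p under 0.05, beside 7.34% of all tested and 2.03% in the upward direction. In the S series 1 of the 6 probe sets, INSIG1, had an unadjusted p under 0.05 beside 7.92% of all tested, and in the no-S series 1 of the 6, SREBF2, beside 3.56%. Without the 4 arrays with high albumin the SREBF2 difference was 0.45 (limma unadjusted p = 8.555e-05, adjusted p = 0.50, title series as a covariate), with 0.47 in the S series and 0.43 in the other.

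The second SREBF2 probe set (Bt.11226.2.S1_at) was dim and did not follow the first. Its means were 5.17 ± 0.40 in high IMF and 5.19 ± 0.25 in low IMF (n = 10 each, SD). Across the animals of a title series its correlation with the brighter probe set was -0.70 in the S series and -0.20 in the other (Pearson r, n = 10 each, given as a description). The direction given for SREBF2 therefore rests on 1 of its 2 probe sets.

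**Figure D1:**
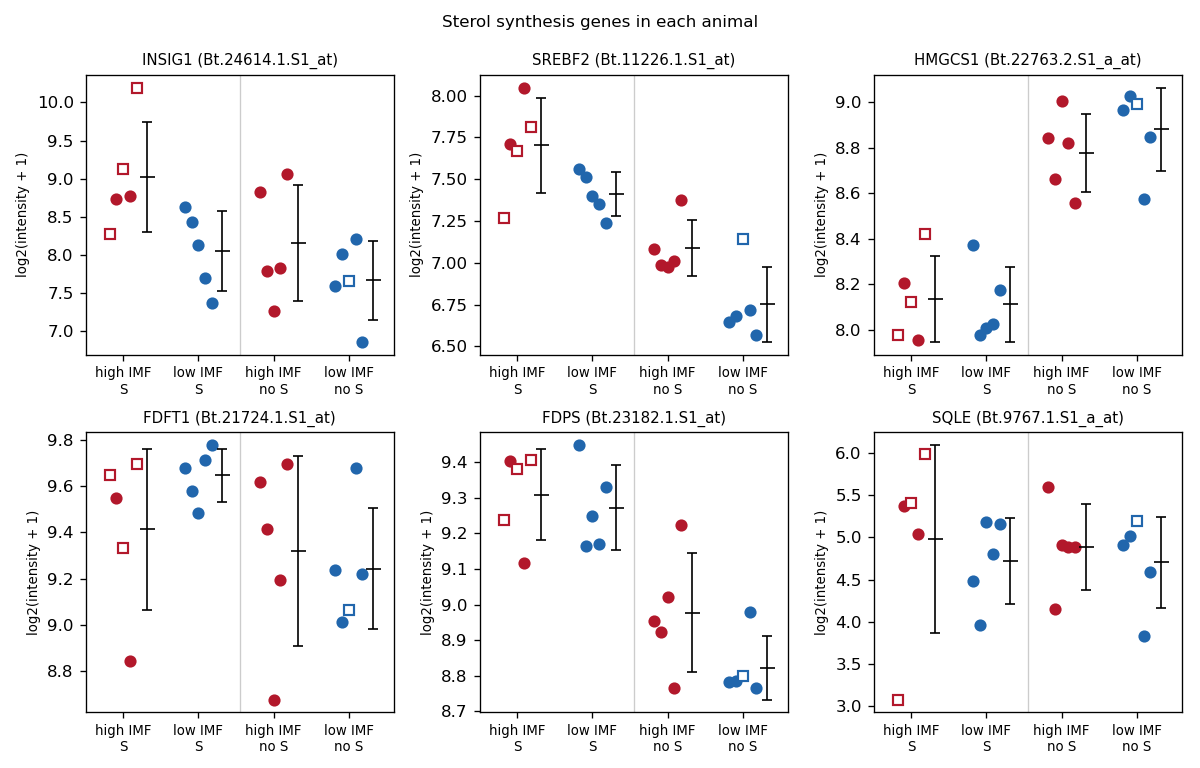
Log2(intensity + 1) of 1 probe set per gene in each of the 20 animals, by IMF group and title series, with the mean and SD of the 5 animals beside them. Open squares are the 4 arrays with an albumin signal over 2000. INSIG1 and SREBF2 are mostly higher in high IMF within each title series, while HMGCS1 separates the title series without overlap.

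HMGCS1 (Bt.22763.2.S1_a_at), which makes HMG-CoA at the start of the pathway, did not separate the IMF groups. Its intensity ran from 247 to 513 with a median of 359 in high IMF, against 251 to 520 with a median of 355 in low IMF. The log2 difference was -0.04 (SE 0.18, limma adjusted p = 0.9997), with 0.02 among S animals and -0.10 among no-S animals. The dim second probe set (Bt.22763.1.S1_at) gave -0.08. Its correlation with the brighter one was -0.54 in the S series and 0.38 in the other (Pearson r, n = 10 each).

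FDPS (Bt.23182.1.S1_at), which makes farnesyl diphosphate, the branch point towards sterols and isoprenoids, averaged 9.14 ± 0.22 in high IMF and 9.05 ± 0.26 in low IMF (n = 10 each, SD). The difference was 0.10 (SE 0.11, limma adjusted p = 0.9997), with 0.04 among S animals and 0.16 among no-S animals. Its values lay close together in each cell of the design, with SDs from 0.09 to 0.17.

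FDFT1, squalene synthase, commits farnesyl diphosphate to sterols and had 3 probe sets. The brightest (Bt.21724.1.S1_at) averaged 9.37 ± 0.36 in high IMF and 9.44 ± 0.29 in low IMF, and the second (Bt.21724.2.S1_a_at) 7.56 ± 0.31 in high IMF and 7.46 ± 0.30 in low IMF (n = 10 each, SD). Their differences, -0.08 (SE 0.14) and 0.10 (SE 0.14), had opposite signs and limma adjusted p-values of 0.9997. In the S animals high minus low IMF was -0.23 for the first and -0.03 for the second, and in the animals without S it was 0.08 and 0.22. The 2 probe sets correlated with each other at r = 0.49 in the S series and 0.85 in the other (n = 10 each). The third (Bt.21724.3.A1_at) was dim, with intensities of 0.01 to 15.1 in high IMF and 0 to 15.5 in low IMF and 1 array listed at 0, and no fold is drawn from it.

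SQLE, squalene epoxidase, which adds the oxygen that starts ring closure, was measured by 1 dim probe set (Bt.9767.1.S1_a_at). Its log2 level ran from 3.08 to 5.98 with a median of 4.97 in high IMF, against 3.83 to 5.19 with a median of 4.86 in low IMF. The lowest and the highest value both came from S animals of high IMF, replicates 6 and 10. The difference was 0.22, with 8 of 10 high IMF animals above the low IMF median. It was 0.10 without high IMF replicate 10, 0.12 without low IMF replicate 4, 0.14 without low IMF replicate 7 or high IMF replicate 1, and 0.42 without high IMF replicate 6. Where all probe sets were tested without the filter, its standard error was 0.29 and limma's adjusted p 0.9998.

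**Figure D2:**
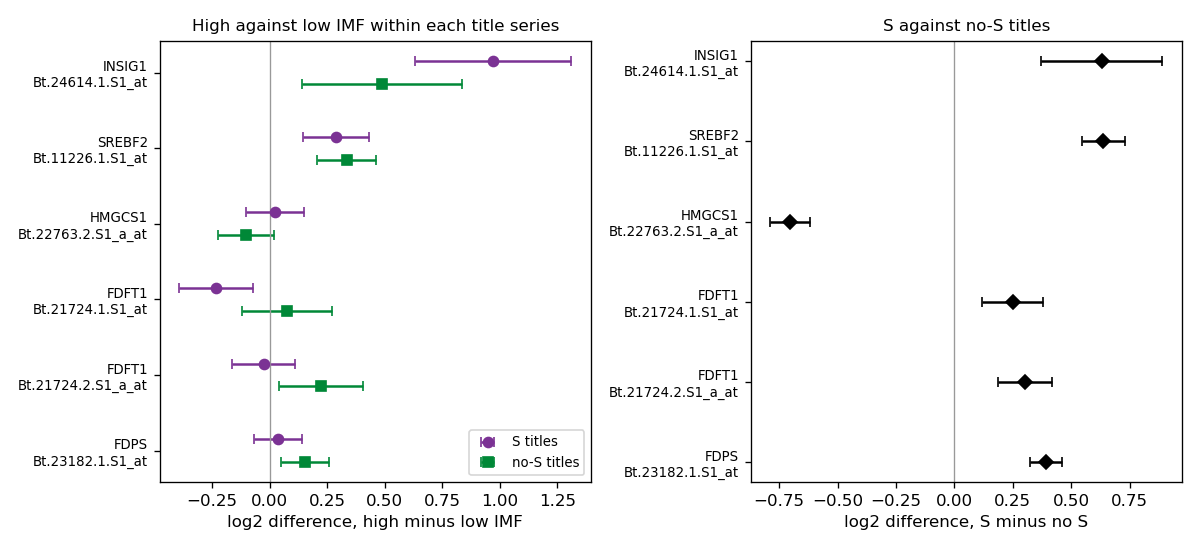
Left, high minus low IMF in log2 units for the 6 tested probe sets, in the S animals (circles) and in the animals without S (squares), 5 against 5 in each. Right, S minus no-S titles with the IMF group in the model. Bars are standard errors from limma. INSIG1 and SREBF2 lie right of 0 in both series, the enzymes lie between -0.23 (FDFT1 in S animals) and 0.22 (FDFT1 in animals without S), and on the right panel only HMGCS1 lies left of 0.

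More of these probe sets were called between the title series than between the IMF groups. Of the 6 tested probe sets 5 were called between S and no-S titles by limma with the IMF group in the model, 4 higher and 1 lower in S. This stands beside 68.3% of all 14409 probe sets called, 33.4% higher and 34.8% lower, so a call in this comparison is the usual case on these arrays. The median of the 6 was 0.35, beside -0.0025 over all tested probe sets. The spiked controls, which do not come from the animals, separated the series as well, and what belongs to the animals and what to the handling of the arrays cannot be told apart.

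HMGCS1 was lower in the S animals and was the only 1 of the 6 whose series did not overlap. The probe set ran from 7.96 to 8.42 with a median of 8.07 in S animals, against 8.56 to 9.03 with a median of 8.84 in animals without S. As intensities these were 247 to 342 in S animals and 376 to 520 in the others. The difference was -0.70 (SE 0.08, 0.614-fold, limma adjusted p = 3.59e-07). Across all tested probe sets 19.6% showed no overlap between the series, 9.27% with lower and 10.4% with higher values in S. The dim HMGCS1 probe set also did not overlap, with 4.07 to 4.76 in S animals and 5.36 to 5.92 in the others, and a difference of -1.33, which was -0.92 with a pseudocount of 16. At such low signal the size of the difference depends on the pseudocount.

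FDPS, 1 of the FDFT1 probe sets, INSIG1 and the brighter SREBF2 probe set were called higher in the S animals. Of 9 tested adipocyte markers 7 were also called higher and 1 lower in S (median 1.45), and of 3 tested macrophage markers 2 were called higher (median 0.83). Of all tested probe sets 33.4% were called higher and 34.8% lower. Among the other lists, 3 of 7 liver transcripts and 2 of 4 endothelial markers were called higher and none lower. Of 6 fibroblast and matrix markers 2 were higher and 1 lower, and of 10 muscle fibre genes 3 were higher and 2 lower. The 1 tested red blood cell marker was called higher. The ratio of 3' to 5' actin control signal ran from 0.601 to 0.886 on S arrays and from 0.771 to 1.004 on the others. The part of these in the differences between title series was not tested. FDPS ran from 9.12 to 9.45 with a median of 9.29 in S animals, against 8.76 to 9.22 with a median of 8.86 in the others. The series shared only the stretch between the lowest S animal and the highest animal without S, and all 10 S animals lay above the median of the others. The FDPS difference was 0.39 (SE 0.07, 1.31-fold, limma adjusted p = 4.16e-05).

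SREBF2 (Bt.11226.1.S1_at) was higher in S animals by 0.64 (SE 0.09, 1.56-fold, limma adjusted p = 5.15e-06), again with all 10 S animals above the median of the others. Its dim second probe set (Bt.11226.2.S1_at) differed by 0.06 (limma adjusted p = 0.766 without the filter), and by -0.08 without the arrays with high albumin. The call for SREBF2 therefore rests on 1 of its 2 probe sets. INSIG1 averaged 8.53 ± 0.78 in S animals and 7.90 ± 0.67 in the others (n = 10 each, SD), a difference of 0.63 (SE 0.26, limma adjusted p = 0.0372). The INSIG1 call was lost without the 4 arrays with high albumin (0.47, adjusted p = 0.145) and without the filter on dim probe sets (adjusted p = 0.0578, where 52.3% of all 24016 probe sets were called). It was also lost without any 1 of high IMF replicates 2, 3, 4, 8 and 10 or low IMF replicates 5, 6 and 7 (adjusted p from 0.0569 to 0.0774).

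The FDFT1 probe sets differed by 0.25 (SE 0.13, limma adjusted p = 0.0984) for Bt.21724.1.S1_at and 0.30 (SE 0.12, adjusted p = 0.0277) for Bt.21724.2.S1_a_at. The call of the second was lost without the arrays with high albumin (0.25, adjusted p = 0.129) and without any 1 of high IMF replicates 3 and 7 or low IMF replicates 3 and 8 (adjusted p from 0.0509 to 0.0585). The first was called without high IMF replicate 5 (adjusted p = 0.0436), without high IMF replicate 9 (0.0196) and with each array centred on its median (0.0357). SQLE differed by 0.05, with 4.847 ± 0.829 in S animals and 4.796 ± 0.502 in the others (n = 10 each, SD).

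Other enzymes of the pathway also differed in both directions between the title series. Of 18 further sterol synthesis enzymes 12 were tested, and limma called 7 higher and 2 lower in S, beside 33.4% higher and 34.8% lower of all tested probe sets. TM7SF2, a sterol reductase, is among the 7 but averaged 5.04 in the animals without S, under the filter at 5.39, so it was tested only through its level in the S animals and its call supports nothing. The higher ones also included LSS, which closes the sterol rings, by 0.69, and EBP, a sterol isomerase, by 0.53. The lower ones were CYP51A1, lanosterol demethylase, at -0.54 and GGPS1, which makes geranylgeranyl diphosphate, at -0.36. The other 6 were not analysed here.

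**Figure D3:**
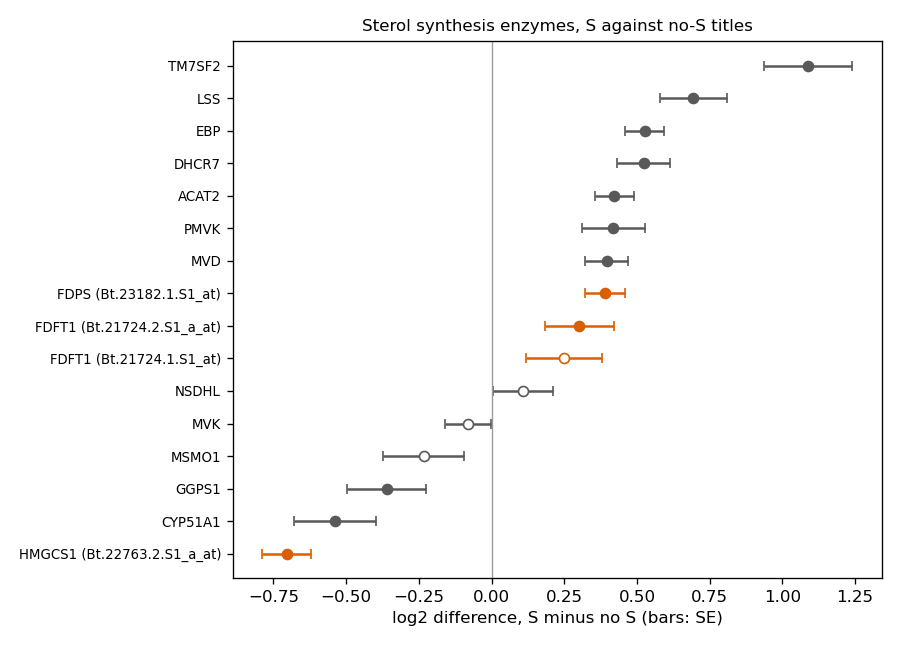
S minus no-S titles in log2 units for the tested probe sets of sterol synthesis enzymes, with standard errors from limma. Filled points have an adjusted p under 0.05, and orange points are HMGCS1, FDPS and FDFT1. HMGCS1, CYP51A1 and GGPS1 are lower in S animals, while LSS and EBP are higher. TM7SF2, at the top, passed the filter only through the S animals.

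Between high and low IMF the same 12 enzymes were higher in 10 cases and lower in 2, none called, with a median of 0.09 beside -0.03 over all probe sets. The smallest unadjusted p-values belonged to MSMO1, a sterol methyl oxidase, with a difference of 0.25 (SE 0.15, 0.41 in S animals and 0.09 in the others), and to ACAT2, which joins acetyl units, with 0.12 (SE 0.12). Of 17 other proteins of the SREBP pathway 13 were tested, 3 higher and 10 lower in high IMF with a median of -0.03 and none called. UBE2G2, a ubiquitin conjugating enzyme of protein degradation at the endoplasmic reticulum, differed by -0.18 (SE 0.14) and INSIG2, the second INSIG protein, by -0.23 (SE 0.22). INSIG2 thus had the opposite sign to INSIG1, also between the title series (-0.74, limma adjusted p = 1.78e-04).

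Genes that handle cholesterol outside synthesis gave small differences. Of 13 genes of uptake, traffic and esterification 8 were tested, 4 higher and 4 lower in high IMF with a median of 0.02, and none was called. SCARB1, a lipoprotein receptor, differed by 0.29 (SE 0.18) and NPC2, which carries cholesterol out of lysosomes, by 0.12 (SE 0.20). Of 10 genes of efflux and the LXR sterol sensors 6 were tested, 5 higher and 1 lower with a median of 0.04 and none called. MYLIP, which degrades the LDL receptor, differed by -0.17 (SE 0.12) and CYP27A1, a sterol hydroxylase, by 0.07 (SE 0.22).

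Fatty acid synthesis, whose genes are driven mainly by the related factor SREBP1, was measured beside the sterol enzymes. Of 13 genes 11 were tested, 10 higher and 1 lower in high IMF with a median of 0.45, none called and 3 with an unadjusted p under 0.05, beside 1.66% of all tested probe sets. THRSP, a promoter of fatty acid synthesis, differed by 2.45 (SE 0.71) and SCD, a fatty acid desaturase, by 1.04 (SE 0.37). SREBF1, which encodes SREBP1, differed by 0.04 (SE 0.20).

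Fat cell transcripts also had mostly higher means in high IMF. Of 14 adipocyte markers 9 were tested, 7 higher and 2 lower in high IMF with a median difference of 1.01 (1.35 in S animals, 0.51 in the others). Their summed intensity ran from 3099 to 24731 in high IMF and from 2404 to 11624 in low IMF. None of the 13 markers with a probe set was at 0 on any array, and ADIPOQ, LEP, PPARG and CEBPA were too dim to be tested. Of 15 liver transcripts 7 were tested, 6 higher and 1 lower in high IMF with a median difference of 0.18. APOA2 is among the 6 but averaged 5.03 in low IMF, under the filter at 5.39. It was tested only through its level in high IMF, so its direction supports nothing. The median difference of the 7 was 1.43 in S animals and -1.07 in the others, opposite in sign. Their mean log2 level was 7.66, 8.57 and 11.22 on high IMF replicates 6, 8 and 10, S arrays with high albumin. On low IMF replicate 3, the no-S array with high albumin, it was 10.58. All other arrays lay between 6.35 and 7.36. The medians were not recomputed without the arrays with high albumin. The summed intensities of the liver transcripts ran from 1226 to 30375 in high IMF and from 1346 to 27362 in low IMF. The highest sum of each group came from an array with high albumin. All 6 fibroblast and matrix markers were higher in high IMF (median 0.21, 0.49 in S animals and 0.0056 in the others), with summed intensities of 8199 to 18028 in high IMF and 6418 to 25167 in low IMF. All 4 tested endothelial markers were lower (median -0.19), with sums of 718 to 1240 in high IMF and 810 to 1426 in low IMF. Of the 10 tested muscle fibre genes 9 were lower (median -0.02), while of all tested probe sets 40.2% were higher in high IMF. None of the markers in these lists was called. The part of these cell types in the differences of INSIG1 and SREBF2 was not tested.

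Across animals, the mean log2 level of the 9 adipocyte markers was set against each of the 6 genes in each title series, 12 correlations in all, chosen after the data were seen. The IMF means were not taken out here, so these values include any difference between the IMF groups. INSIG1 had r = 0.71 in the S animals (n = 10, permutation p = 0.0185, adjusted 0.114, Spearman rho = 0.54 with permutation p = 0.112). There it had r = 0.60 without the 2 animals farthest from the median adipocyte level and r = 0.45 without the 3 arrays with high albumin (n = 7). In the animals without S it had r = 0.63 (n = 10, permutation p = 0.0509, adjusted 0.122, rho = 0.43 with permutation p = 0.216), and r = 0.04 without the 2 farthest animals. Leaving them out also narrows the range of the adipocyte level, so what the value of 0.63 rests on cannot be told. HMGCS1 and FDPS, whose means hardly differed between IMF groups, had r = 0.66 (rho = 0.56) and r = 0.69 (rho = 0.68) in the S animals, and r = 0.0047 (rho = -0.21) and r = 0.30 (rho = 0.33) in the others. In the S animals the permutation p of r was 0.038 for HMGCS1 and 0.0312 for FDPS, each 0.114 when adjusted. There r was 0.79 and 0.88 without the 2 farthest animals, and 0.89 and 0.88 without the 3 arrays with high albumin (n = 7). For SREBF2 the S animals gave r = 0.20 (rho = 0.25) and the animals without S gave r = 0.68 (n = 10, permutation p = 0.0292, adjusted 0.114, rho = 0.67 with permutation p = 0.0401), 0.61 without the 2 farthest animals and 0.67 without the array with high albumin. None of the 12 had an adjusted permutation p under 0.05. High IMF replicate 10 had both the highest INSIG1 value and the highest adipocyte level, 10.67, and is 1 of the arrays with high albumin.

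Within each title series the 6 genes were then compared with each other, with the brightest probe set of each gene, 15 pairs per series and 30 in all. Correlations of both signs were found in each series. Among S animals 12 of 15 correlations were positive (median r 0.41), and among no-S animals 9 of 15 (median r 0.24). Over all pairs of tested probe sets the share of positive r was 60.8% (median r 0.12) among S animals and 51.8% (median r 0.018) among no-S animals. An r of at least 0.6 was found in 2 of 15 pairs in S animals, beside 11.0% of all pairs, and in 4 of 15 pairs in the others, beside 6.25%. An r of at most -0.6 was found in 1 of 15 pairs in S animals, beside 3.74% of all pairs, and in 2 of 15 in the others, beside 4.08%. Genes of 1 array share its depth and labelling, so such values are not independent of each other.

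The closest pair in the S animals was HMGCS1 with FDPS, 2 enzymes of the pathway before squalene (r = 0.88, n = 10, permutation p = 8.6e-04, adjusted over the 30 pairs 0.0258, Spearman rho = 0.94 with permutation p = 2.2e-04, adjusted 0.0066). Here and below, the 2 farthest animals are those farthest from the median of the first gene named. Without the 2 farthest animals r was 0.90, with the IMF means taken out 0.88, and without the 3 S arrays with high albumin 0.95 (n = 7). In the animals without S the same pair had r = -0.61 (n = 10, permutation p = 0.0558, adjusted 0.193, rho = -0.33 with permutation p = 0.347), and -0.13 without the 2 farthest. The difference between the series was not tested. These values, and those of HMGCS1 with FDFT1, rest on the brighter of 2 HMGCS1 probe sets. In the S animals the dim one did not follow it (r = -0.54, n = 10). The call in the S animals did not hold with arrays centred on their medians (r = 0.82, adjusted permutation p = 0.0647) or quantile normalized (r = 0.78, adjusted permutation p = 0.151).

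In the animals without S the closest pair was HMGCS1 with FDFT1, which went in opposite directions (r = -0.83, n = 10, permutation p = 0.00276, adjusted 0.0414, rho = -0.88 with permutation p = 0.00151, adjusted 0.0151). Without the 2 farthest animals r was -0.68. The call did not hold under quantile normalization (r = -0.78, adjusted permutation p = 0.151) or without the 1 array with high albumin (r = -0.82, n = 9, adjusted permutation p = 0.0945). In the S animals this pair had r = 0.43 (n = 10, permutation p = 0.212, adjusted 0.385).

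The regulators INSIG1 and SREBF2, the latter by its brighter probe set, correlated positively in both series, and in the S animals the correlation of ranks passed the adjustment. There r was 0.73 (n = 10, permutation p = 0.0155, adjusted 0.118) and Spearman rho 0.90 (permutation p = 7.3e-04, adjusted 0.011), and r was 0.70 without the 2 farthest animals and 0.56 with the IMF means taken out. Without the 3 S arrays with high albumin r was 0.84 (n = 7). The 5 S animals of low IMF stood in the same order for both genes, with replicate 6 highest and replicate 10 lowest. In the animals without S r was 0.61 (n = 10, permutation p = 0.0635, adjusted 0.193, rho = 0.58 with permutation p = 0.0884) and 0.16 without the 2 farthest. Leaving them out also narrows the range of INSIG1, so what the value of 0.61 rests on cannot be told. The correlations of INSIG1 with SREBF2, and those of SREBF2 with other genes below, rest on the brighter of 2 SREBF2 probe sets. Among S animals the dim one ran against it (r = -0.70, n = 10), and among no-S animals r was -0.20 (n = 10).

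SREBF2 and FDFT1 had r = -0.72 in the S animals (n = 10, permutation p = 0.0157, adjusted 0.118, rho = -0.56 with permutation p = 0.095), and -0.20 without the 2 farthest animals. INSIG1 and FDFT1 had r = 0.71 in the animals without S (n = 10, permutation p = 0.0212, adjusted 0.127, rho = 0.62 with permutation p = 0.0604), and 0.46 without the 2 farthest. SREBF2 and FDPS had r = 0.63 in the animals without S (n = 10, permutation p = 0.0472, adjusted 0.193, rho = 0.54 with permutation p = 0.113). For that pair r was 0.15 without the 2 farthest animals and 0.76 without the array with high albumin (n = 9). None of these values passed adjustment over the 30 pairs. SQLE, at its low intensities, reached r = 0.60 with HMGCS1 in the animals without S (n = 10, permutation p = 0.0645, adjusted 0.193, rho = 0.60 with permutation p = 0.0728).

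**Figure D4:**
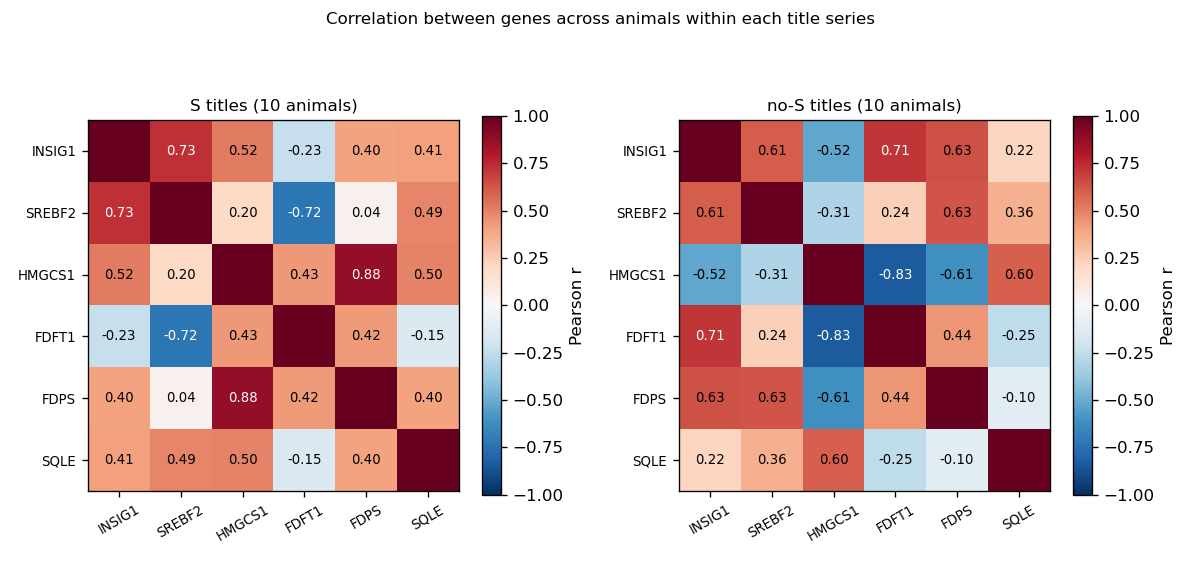
Pearson r between the 6 genes across the 10 animals of each title series, S titles on the left and no-S titles on the right. The HMGCS1 row is positive throughout in the S animals, while in the animals without S it is negative for each gene except SQLE.

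**Figure D5:**
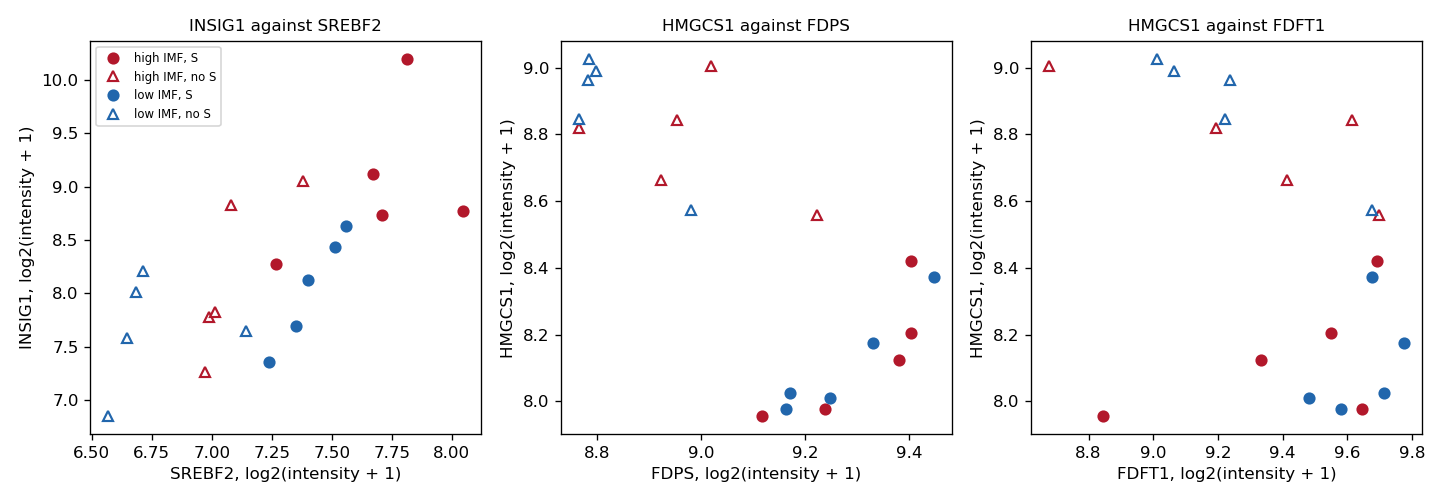
Log2(intensity + 1) of 3 gene pairs in each animal, with filled circles for S titles and open triangles for no-S titles, red for high IMF and blue for low IMF. HMGCS1 and FDPS rise together among the circles (r = 0.88), and HMGCS1 falls with rising FDFT1 among the triangles (r = -0.83).

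With the means of the 4 cells of the design taken out, each gene was ranked against 7015 others across the 20 animals by Pearson r, given here as a description (7016 for SQLE). INSIG1 was most like FAAP24 (r = 0.87), PPP3CB (0.80) and TSR1 (0.79), and SREBF2 was at rank 407 with r = 0.54. SREBF2 was most like NUP210 (r = 0.76), ATP6AP1 (0.72) and CASTOR1 (0.71), with INSIG1 at rank 166. HMGCS1 was most like FMNL2 (r = 0.90), COA5 (0.87) and FRYL (0.86), and FDPS was far down its order at rank 3877 (r = 0.13). That pair had r of opposite sign in the title series.

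None of the 3 genes nearest to each of the 6 came from the pathway lists used here. FDPS was most like BAD (r = 0.78), ANO10 (0.77) and PAN2 (0.73), and FDFT1 was most like FBXL4 (r = 0.87), ORMDL3 (0.85) and DBNDD2 (0.84). FDFT1 stood at rank 352 for FDPS with r = 0.49. SQLE was most like RASA1 (r = 0.90), SRPK2 (0.88) and RIT1 (0.86). All these values share the same 20 arrays.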

How the data were processed

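The authors deposited 1 table of linear intensity values per probe set, from 1 array per animal, and the submitters' processing notes name Affymetrix Expression Console 1.1 and GCOS 1.1.1. The summary and scaling method and a genome build are not given in the sources used here, and no detection calls were used, so dim probe sets were left out by their mean only. Of 24128 probe sets, 112 controls were removed. The values were taken as log2(intensity + 1), which understates changes of dim probe sets, and the authors' deposited scaling was kept. The 40% dimmest of the remaining 24016 were left out and 14409 were tested.

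Comparisons used two-sided tests from limma 3.58.1 (lmFit, then eBayes; R 4.3.3) with Benjamini-Hochberg adjustment over all tested probe sets at 0.05. High and low IMF were compared over all animals and within each title series, and S with no-S titles with the IMF group in the model. The submitters' design text names a paired t-test, but the labels pair no animals, so fits were unpaired. Correlations used two-sided permutation tests with 100000 resamples (scipy 1.17.1). The code was tested on simulated data. The number of arrays limits the precision.

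Alternatives were other scalings, pseudocount 16, no filter or 60% left out, the title series or no covariate, an unpaired t-test, and arrays left out. Names came from GEO's platform annotation, with 1 symbol for 13318 probe sets, several for 86 and none for 10724. The gene identifiers of 13263 matched the RefSeq table, and 0 symbols changed. The 6 genes, the lists and the 4 arrays with high albumin were chosen with earlier results of these data known. Named from each pathway list were the 2 genes with the smallest limma p between high and low IMF, and for likeness the 3 genes with the highest r. The enzymes named between title series, INSIG2 there, SREBF1 and ACTA1 were chosen after their values were seen. Promoter motifs were not searched here.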

Additional observations from a re-analysis of the deposited data

Results flagged for a closer look

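In 8 of 60 groups of animals checked across the 10 probe sets, 1 animal stood far from the others by Dixon's test at 95%. Chance flags about 1 in 20 groups, and the groups checked overlap. For SREBF2 (Bt.11226.1.S1_at), high IMF replicate 5 at 7.378 log2 units was the highest of the 5 high IMF animals without S, with the next at 7.08. Low IMF replicate 3 at 7.143 was the highest of the 5 low IMF animals without S, with the next at 6.715, and it is 1 of the 4 arrays with high albumin. For the dim SREBF2 probe set, high IMF replicate 9 at 4.243 was the lowest of the 10 high IMF animals, with the next at 4.975.

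For FDPS, low IMF replicate 4 at 8.98 was the highest of the 5 low IMF animals without S, with the next at 8.798. For the dim HMGCS1 probe set, low IMF replicate 2 at 5.644 was the lowest of the 5 low IMF animals without S, with the next at 5.868. The third FDFT1 probe set gave 3 of the 8. High IMF replicate 1 at 0.01436 was the lowest of the 10 high IMF animals, with the next at 2.331. Low IMF replicate 10, listed at 0.0, was the lowest of the 10 low IMF animals, with the next at 2.452. High IMF replicate 10 at 2.59 was the lowest of the 5 S animals of high IMF, with the next at 3.612.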

How the results depend on the processing

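Of 119 recomputed counts of calls 116 stayed within 1.5 times the reported count, and the count for high against low IMF was 0 under each alternative. The exceptions were the 2 gene pairs called within title series, which became 1 with arrays centred on their medians, 0 under quantile normalization and 1 without the arrays with high albumin. By Spearman's rho 3 pairs were called. Of 1130 recomputed differences of single probe sets, 1088 kept direction and side of the threshold or moved by less than 1 SD, some of them across 0. Among tested probe sets 21 turned sign, all of differences that were not called, and among those too dim to be tested 44 did. With a pseudocount of 16, 2 differences of dim probe sets moved by more than 1 SD, HMGCS1 (Bt.22763.1.S1_at) between the title series to -0.92 and the FDFT1 (Bt.21724.3.A1_at) interaction to 0.49. HMGCS1 (Bt.22763.2.S1_a_at) between IMF groups was 0.000185 with median centring and ran from -0.10 to 0.0195 with 1 array left out. Within S animals FDFT1 (Bt.21724.2.S1_a_at) was 0.0314 with median centring, 0.0697 under quantile normalization and -0.0975 to 0.0765 with 1 array left out. Without the arrays with high albumin HMGCS1 was -0.0318 and FDPS -0.0121 within S animals, and with 1 array left out HMGCS1 ran from -0.0471 to 0.0895. FDFT1 (Bt.21724.1.S1_at) within no-S animals ran from -0.0175 to 0.237. The SREBF2 interaction was 0.0272 under quantile normalization, 0.0348 without the arrays with high albumin and -0.143 to 0.0638 with 1 array left out. The cause was not tested. INSIG1 between S and no-S titles was not called without the IMF group in the model (adjusted p = 0.0662, limma). With 1 array left out, INSIG1 between IMF groups ran from 0.55 to 0.88 and SREBF2 from 0.24 to 0.37, always higher in high IMF, and S against no-S titles gave 9566 to 9811 calls. No paired analysis was possible because the labels pair no high IMF animal with a low IMF animal. The number of arrays and dim signal limit SQLE and the third FDFT1 probe set most.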
